A study of Homo sapiens with 8 samples.

Results

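The effect of a kinase inhibitor was set against the effect of PRMT5 knockdown in HEL cells, gene by gene. All 8 of the 8 arrays of the series entered the comparison, because it is a difference of differences: CEP701 minus DMSO, minus PRMT5 shRNA minus scramble. HEL is a human erythroleukaemia line whose JAK2 kinase is mutated and constantly active. The drug arm holds 2 arrays of cells kept in 0.5 µM CEP701 for 16 h and 2 of cells kept in DMSO for 16 h. CEP701 is lestaurtinib, which inhibits JAK2, FLT3 and other kinases. In the shRNA arm, 2 arrays came from a stable line carrying 1 shRNA against PRMT5 (sh86) in the lentiviral vector pLKO, and 2 from cells with a scramble shRNA (LKO scramble). The shRNA arrays were paired by a suffix that their titles share. Nothing in the labels states that arrays of 1 group were grown as separate cultures; the p-values reflect variation among these arrays alone, possibly of technical origin, and 2 arrays a group limit the precision of every value.

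JAK2 is the kinase through which the receptors for erythropoietin and thrombopoietin signal. It phosphorylates STAT proteins and feeds the RAS-ERK and PI3K pathways, whose targets include PIM kinases, SOCS inhibitors, DUSP phosphatases and MYC. PRMT5 is an enzyme that places symmetric dimethyl marks on arginines of histones, of the Sm proteins of the spliceosome and of other proteins, in a complex with WDR77. Mutant JAK2 has been described to phosphorylate PRMT5 and lower its methyltransferase activity.

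The arms differed before either treatment. Genes described with their values are therefore mostly given with the level in both controls, while genes only listed are not. Scramble minus DMSO passed an adjusted p of 0.05 for 7800 of 14162 genes tested (55.1%), and 4340 of these differed at least 2-fold. Across genes, arrays of one group correlated at 0.964 to 0.978 and arrays of different arms at 0.804 to 0.845. The summed signal of 20 monocyte and granulocyte markers was 7764 to 11040 in the drug arm and 74050 to 120500 in the shRNA arm. S100A8 was at 29.5 to 44.4 in the drug arm and at 15850 to 25620 in the shRNA arm. MTAP, which recycles methylthioadenosine, an inhibitor of PRMT5, was at 1.54 and 2.06 with DMSO and at 492 and 604 with scramble. The summed signal of 30 erythroid genes was alike, 179700 to 202400 in the drug arm and 152000 to 217600 in the shRNA arm, but its members were not: 7 were at least 2-fold higher with scramble than with DMSO (limma, adjusted p under 0.05) and 8 at least 2-fold lower. HBB was at 1509 and 1613 with DMSO and 38260 and 21290 with scramble, whereas CA1 was at 22540 and 25370 with DMSO and 478 and 163 with scramble. Of 11 epithelial and fibroblast genes 4 were at least 2-fold higher with scramble, among them EPCAM (27.0 and 39.9 with DMSO, 2660 and 980 with scramble), and 1 was at least 2-fold lower. All 8 samples are labelled HEL, and the labels do not say whether both arms were started from the same stock of the line. Stock, treatment type, vector, culture and baseline state all go with the arm and cannot be told apart. In bulk RNA, fewer cells of a type and less RNA per cell cannot be told apart either. MTAP, S100A8, HBB, CA1 and EPCAM were chosen after their values were seen.

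PRMT5 itself was lower in the knockdown line. Its signal was 1794 and 984 with scramble and 664 and 315 with PRMT5 shRNA, in the order of the pairs. The groups did not overlap, and both pairs fell (log2 change -1.42 and -1.61). The fitted change was -1.52 ± 0.12 (SE, 2 arrays a group, limma adjusted p = 8.91e-05), a 2.86-fold fall. This SE was pooled over the arrays of both arms, so the drug effect had the same SE (0.12). Here and for the other genes given with an SE, it is not the spread of the shRNA arrays alone. With CEP701 the signal was 3023 and 2750, against 3419 and 3221 with DMSO, a log2 change of -0.20 that did not pass (adjusted p = 0.268). The difference of the effects was 1.31 (95% interval 0.94 to 1.69, adjusted p = 0.000767). All 3 PRMT5 probe sets had the same sign in each effect. The control level was 3320 with DMSO and 1389 with scramble, so cells with the control vector already had 2.48-fold less. Without the pair term, the knockdown of PRMT5 had an adjusted p of 0.217 and the difference one of 0.185.

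Many more genes passed with the drug than with the knockdown. The gap depended on the threshold: at unadjusted limma p under 0.05 the counts were 4908 and 2089. The SD of the effects across genes was 0.613 with CEP701 and 0.452 with PRMT5 shRNA. CEP701 minus DMSO passed for 3155 genes, 22.3% of those tested, of which 1780 rose (12.6%) and 1375 fell (9.71%). PRMT5 shRNA minus scramble passed for 247 genes (1.74%), of which 45 rose (0.318%) and 202 fell (1.43%). The difference of the effects passed for 2456 genes (17.3%): the CEP701 effect was the higher for 1331 (9.4%) and the lower for 1125 (7.94%). In 2141 of these 2456 the effects had opposite signs and in 315 the same sign, and 2380 were measured in both arms. Selecting on the difference itself favours opposite signs, so this split is not a separate result. Only 190 of the 2456 also passed in the knockdown itself, whereas 2000 passed in the drug effect. The pair term carries much of this: without it 819 genes passed for CEP701 (5.78%), 21 for the knockdown (0.148%) and 203 for the difference (1.43%), and all 203 were among the 2456.

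Across all genes the correlation of the effects was close to 0, and its sign was not stable. Pearson's r was -0.0721 and Spearman's rho -0.132 over 14162 genes, and -0.133 and -0.190 over the 11520 genes measured in both arms. Genes are not independent replicates, so these are descriptions. With each shRNA pair alone r was -0.0561 and -0.0548, but without PRMT5 shRNA replicate 1 or scramble replicate 2, and so without pairing, it was 0.0468 and 0.0482. A gene passed in both effects in 113 cases, which is 3.58% of the drug calls and 45.7% of the knockdown calls. Of these 113, 31 moved in the same direction, 26 down and 5 up, and 82 in opposite directions. Among the opposite ones, 68 rose with CEP701 and fell with PRMT5 shRNA, and 14 fell with CEP701 and rose with PRMT5 shRNA. All 82 also passed in the difference, 42 of the 68 and 5 of the 14 without the pair term. Opposite changes add up in the difference, so for genes selected this way passing was close to given and is no separate support. Seen from the knockdown, 68 of its 202 lower genes rose with the drug (33.7%) and 26 fell with it (12.9%). This split moved with the scaling of the arrays: with median scaling 49 genes had the same and 28 the opposite direction, and with scaling to the poly-A spike controls 43 and 10. The median difference over all genes was 0.11 as deposited, -0.11 with median scaling and -0.40 with poly-A scaling. With no pair term only AK4, lower in both, and ADD1, higher with CEP701 and lower with PRMT5 shRNA, passed in both effects.

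**Figure D1:**
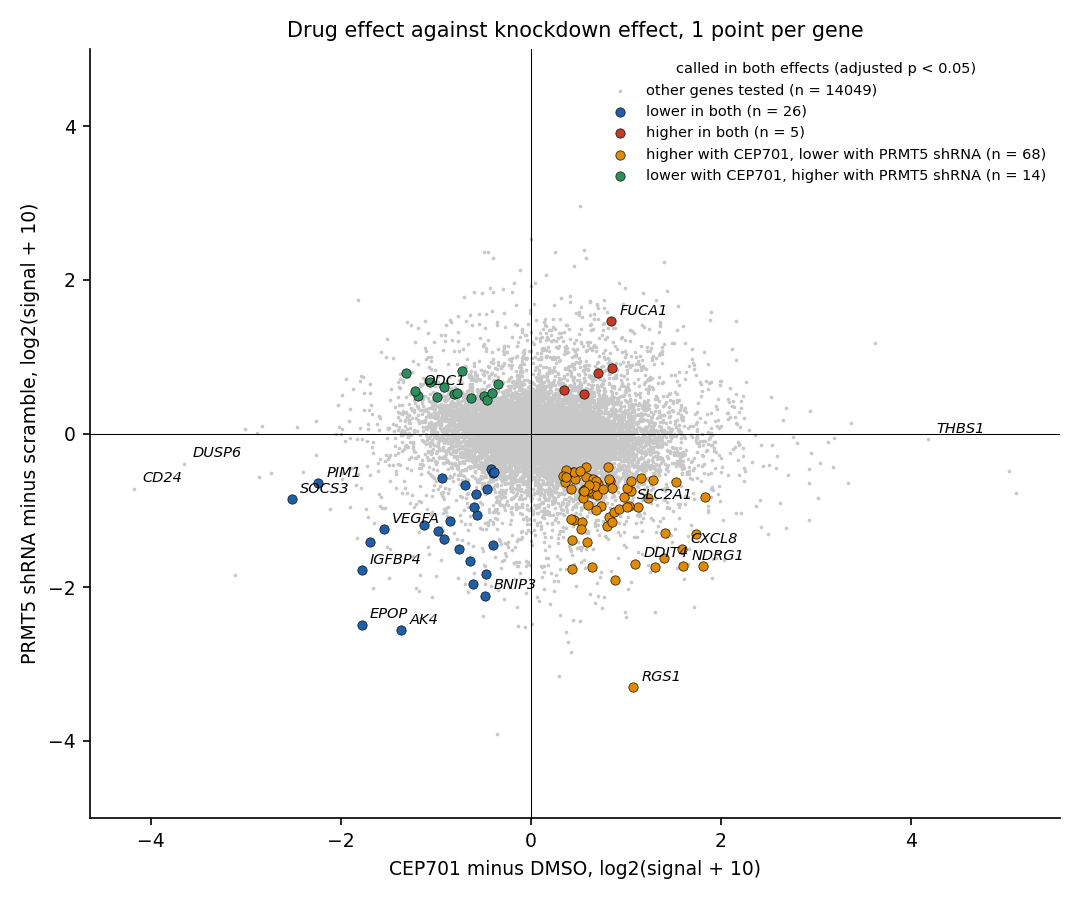
Log2 change with CEP701 (horizontal) against log2 change with PRMT5 shRNA (vertical), both on the log2(signal + 10) scale, for the 14162 genes tested; colours mark the 113 genes that passed in both effects. The coloured points lie mostly in the lower right, 68 genes higher with CEP701 and lower with PRMT5 shRNA, and in the lower left, 26 genes lower in both.

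Genes that fell in both effects included targets of JAK-STAT signalling, genes of the hypoxia response, and growth regulators. AK4, a mitochondrial adenylate kinase, had a signal of 5263 and 5383 with DMSO and 2074 and 2050 with CEP701. In the shRNA arm it was at 3475 and 5075 with scramble and 635 and 780 with PRMT5 shRNA. The groups did not overlap in either arm. The log2 changes were -1.36 ± 0.11 with CEP701 (adjusted p = 3.15e-05) and -2.56 ± 0.11 with the knockdown (adjusted p = 1.78e-06), and the knockdown change was the larger (interval of the difference 0.86 to 1.54, adjusted p = 0.000717, and 0.0697 without the pair term). VEGFA, the angiogenic growth factor, was at 935 and 801 with DMSO and 274 and 306 with CEP701. It was at 3322 and 4999 with scramble and 1522 and 1930 with PRMT5 shRNA. No array of a treated group reached its control group, although the shRNA arm began 4.67-fold higher. The changes of -1.55 and -1.24 did not differ beyond their error (difference -0.30, 95% interval -0.74 to 0.13). Of its 4 probe sets, 3 shared the sign of the drug effect and all shared that of the knockdown. Only 2 of the 4 shared the sign of the difference, which ran from -0.30 to 1.77 across them. IGFBP4, which binds insulin-like growth factors, fell 3.43-fold in each arm (difference 0.00, interval -0.93 to 0.93), from mean control signals of 385 and 476. EPOP, an Elongin BC and Polycomb partner, fell by 1.78 and by 2.49, from low control signals of 284 and 167.

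PIM1 and SOCS3, targets of STAT transcription factors, fell in both arms but more with the drug. PIM1, a survival kinase, was at 3358 and 3552 with DMSO and at 723 and 727 with CEP701. It was at 4152 and 4812 with scramble and at 2515 and 3222 with PRMT5 shRNA. The 4.71-fold fall with CEP701 and the 1.57-fold fall with PRMT5 shRNA differed by -1.59 on the log2 scale (interval -1.92 to -1.26, adjusted p = 0.000131, and 0.0210 without the pair term). SOCS3, a feedback inhibitor of JAK kinases, was at 722 and 544 with DMSO and 102 and 100 with CEP701. With scramble it was at 2020 and 3929 and with PRMT5 shRNA at 1102 and 2177, where the groups overlapped although both pairs fell. Its changes were -2.51 and -0.86 (difference adjusted p = 0.00117, and 0.134 without the pair term), and of its 3 probe sets 2 had this sign in the drug effect and in the difference. CCND2, the cyclin D2 gene, fell by 0.42 and 0.46 from 11810 and 6512, and MYCN by 0.70 and 0.67 from 1044 and 1174. With the drug, 1 of 4 CCND2 probe sets and 1 of 2 MYCN probe sets had the other sign. Among the 26 genes, 23 had arrays that did not overlap in either arm, a pattern that 2.85% of all genes showed with both changes downward. Genes selected for passing in both effects are favoured to show such separation, here and in the groups below. It is therefore no separate support. In 8 of the 26 the effects differed: the fall was larger with the drug for PIM1 and SOCS3, and larger with the knockdown for AK4, BNIP3, PDK1, HILPDA, IGFBP2 and ARG2. Without the pair term 1 of these 8 differences, that of PIM1, passed.

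The other genes of this group were AZU1, CD83, HBBP1, BCL6B, ITGB5, PTX3, DUSP7, CHSY1, LDHA, PGK1, PFKP, PFKFB3 and SLC2A3. AZU1, a neutrophil granule protein, stood at 61.5 and 70.7 with DMSO and at 2398 and 4249 with scramble, so its fall of 1.69 with CEP701 took place near the median of all signals on the arrays, 60. BCL6B had 1 of 3 probe sets with the listed sign of the drug effect. Those of the group that are glycolytic are taken up with the hypoxia response.

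The 5 genes that rose in both effects included a lysosomal enzyme, an NRF2 target and a sulfate transporter. FUCA1, the lysosomal fucosidase, was at 1156 and 1292 with DMSO and at 2301 and 2099 with CEP701. It was at 1794 and 1915 with scramble and at 3951 and 6606 with PRMT5 shRNA, with no overlap in either arm. It rose 1.79-fold and 2.75-fold, and the difference of -0.62 did not pass (adjusted p = 0.0694). CREG1, a secreted glycoprotein of the endolysosome, rose by 0.56 and 0.52 from 8298 and 13180, with a difference of 0.03 (interval -0.24 to 0.31). NQO1, a quinone reductase, rose by 0.70 and 0.79 from 412 and 1202. STAR, which carries cholesterol into mitochondria, rose 1.80-fold and 1.81-fold, but from 3098 with DMSO and only 62.4 with scramble. SLC26A2, a sulfate transporter, rose by 0.34 and 0.56 from 1841 and 3078. With poly-A scaling its drug effect was -0.15. STAR and SLC26A2 overlapped between scramble and PRMT5 shRNA, which left 3 of the 5 without overlap in either arm (4.66% of all genes with both changes upward). None of the 5 knockdown changes passed without the pair term (adjusted p = 0.0537 to 0.754).

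**Figure D2:**
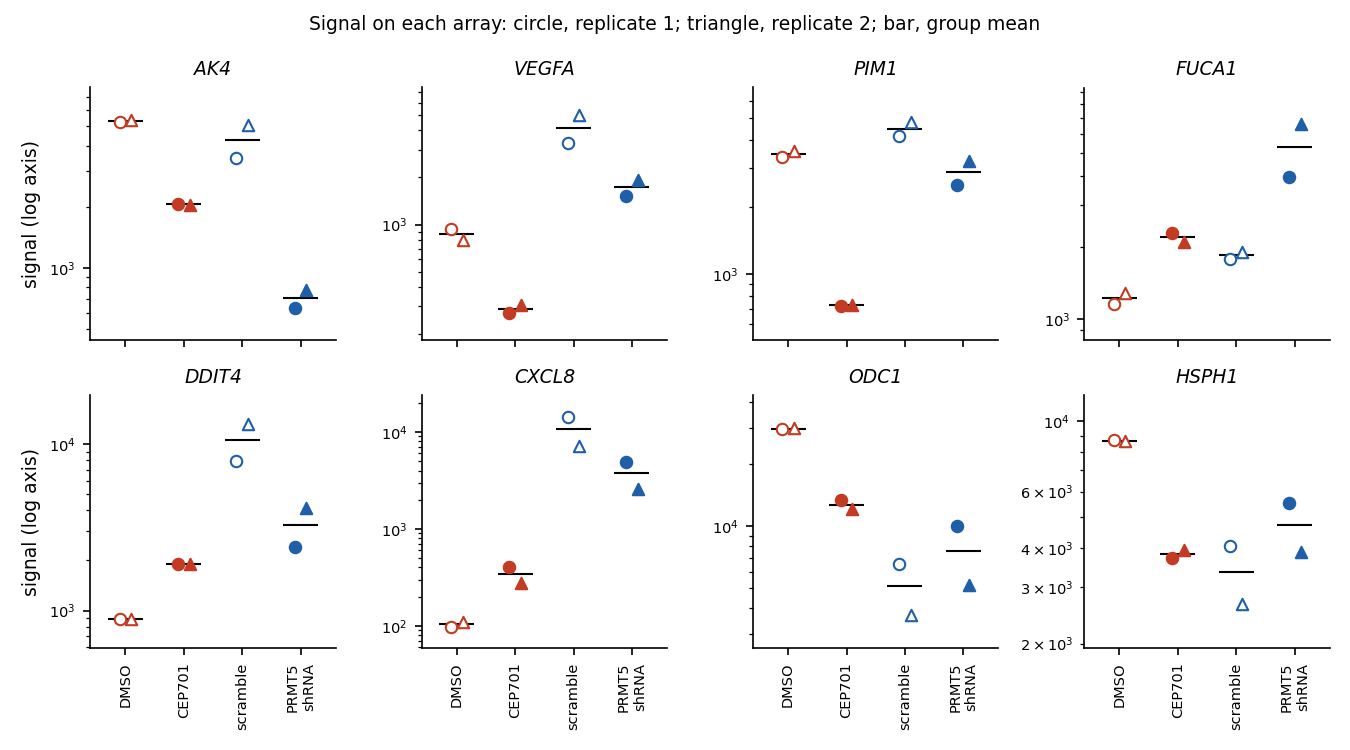
Signal on each of the 8 arrays (log axis, deposited MAS5 signal) for 8 genes, by group, with circles for replicate 1, triangles for replicate 2 and a bar at the group mean. AK4, VEGFA and PIM1 fall and FUCA1 rises in both arms, DDIT4 and CXCL8 rise with CEP701 and fall with PRMT5 shRNA, and ODC1 and HSPH1 fall with CEP701 and lie higher with PRMT5 shRNA within each pair.

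The hypoxia response had the largest median difference among the 33 gene lists examined: over its 23 genes outside glycolysis the median change was -1.68 with PRMT5 shRNA and 0.03 with CEP701. Hypoxia genes are switched on by the HIF transcription factors when oxygen is low, and include most glycolytic enzymes. Of 43 measured hypoxia and glycolysis genes, 32 fell and 0 rose with PRMT5 shRNA (42 of 43 changes were below 0), against 1.43% of all genes that fell. With CEP701 7 rose and 10 fell (12.6% and 9.71% of all genes). The median change was -1.12 with the knockdown and -0.05 with the drug, and the difference was higher for CEP701 in 25 genes and lower in 0 (limma, adjusted p under 0.05; over all genes 9.4% and 7.94%). At the unadjusted level 4399 of all genes had p under 0.05 in the difference. Without the pair term 6 of the 43 fell with PRMT5 shRNA and 9 differed, and with poly-A scaling 26 fell and 13 were higher and 1 lower in the difference. Promoters of 4 of these genes are shown because the letters ACGTG stand in them. ACGTG is a form of the core of the hypoxia response element bound by HIF, and other forms were not counted. They are RefSeq sequences of GRCh38.p14, the 250 bases before the gene's start, 5′ to 3′ on the gene's strand, with ACGTG or its complement CACGT in capitals. The capitals CACGTG hold both, overlapping. BNIP3 lies at chr10:131981924-131982173 on the minus strand, AK4 at chr1:65147302-65147551 on the plus strand, DDIT4 at chr10:72273674-72273923 on the plus strand and P4HA1 at chr10:73096867-73097116 on the minus strand.
BNIP3: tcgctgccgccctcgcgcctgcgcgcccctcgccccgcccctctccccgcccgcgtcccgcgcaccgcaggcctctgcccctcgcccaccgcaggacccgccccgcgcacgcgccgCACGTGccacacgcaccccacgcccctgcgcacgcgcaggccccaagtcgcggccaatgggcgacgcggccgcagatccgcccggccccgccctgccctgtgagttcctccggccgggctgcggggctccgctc
AK4: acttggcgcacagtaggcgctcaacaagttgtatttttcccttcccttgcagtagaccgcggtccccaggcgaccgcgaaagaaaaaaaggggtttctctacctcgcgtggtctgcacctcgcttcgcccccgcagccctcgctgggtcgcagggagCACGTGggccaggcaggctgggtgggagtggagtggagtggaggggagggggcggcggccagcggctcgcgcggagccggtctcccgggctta
DDIT4: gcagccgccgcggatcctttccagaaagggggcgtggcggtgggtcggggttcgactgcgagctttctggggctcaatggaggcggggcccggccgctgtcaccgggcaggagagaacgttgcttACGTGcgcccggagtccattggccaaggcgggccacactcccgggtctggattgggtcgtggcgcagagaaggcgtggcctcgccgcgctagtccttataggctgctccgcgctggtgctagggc
P4HA1: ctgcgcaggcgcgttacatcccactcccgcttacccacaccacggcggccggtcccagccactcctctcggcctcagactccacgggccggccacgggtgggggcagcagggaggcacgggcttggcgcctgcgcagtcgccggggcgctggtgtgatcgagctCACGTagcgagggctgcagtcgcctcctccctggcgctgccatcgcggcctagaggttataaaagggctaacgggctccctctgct
Over all genes with a promoter sequence, 2577 of 11369 (22.7%) held ACGTG on either strand of these 250 bases. Among the hypoxia and glycolysis genes 21 of 39 did (53.8%), among those that fell in both effects 4 of 7, and among those that rose with CEP701 and fell with PRMT5 shRNA 1 of 5. Over all 19 genes with a sequence that fell in both effects it was 6 (31.6%), over 56 that rose with CEP701 and fell with PRMT5 shRNA 16 (28.6%), and over 11 with the reverse pattern 1 (9.09%). The longer CACGTG stood in 972 of the 11369 promoters (8.55%) and in 7 of 39 of the hypoxia and glycolysis genes (17.9%). Among the latter it stood in 3 of 7 that fell in both effects and in 0 of 5 that moved in opposite directions. A match says only that the letters are there, not which protein binds them.

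Within the hypoxia response, the genes that the knockdown lowered went both ways with the drug. So did those over all genes, where 68 of 202 rose and 26 fell. Lower in both were AK4, VEGFA, BNIP3, PDK1, PFKP, SLC2A3, PFKFB3, LDHA and PGK1, 9 in all. Opposite, higher with CEP701 and lower with PRMT5 shRNA, were DDIT4, NDRG1, BNIP3L, ADM, MXI1, KDM3A and SLC2A1, 7 in all. A further 16 passed in the knockdown only. Without the pair term 1 gene was lower in both and 0 were opposite, and with eBayes without a trend 1 and 1. BNIP3, a mitophagy receptor whose promoter is printed above, was at 3059 and 3122 with DMSO and 2295 and 2124 with CEP701. It was at 8217 and 11080 with scramble and 1689 and 2871 with PRMT5 shRNA. The fall with PRMT5 shRNA (-2.11 ± 0.11) exceeded that with CEP701 (-0.48 ± 0.11; difference adjusted p = 0.000155, and 0.0549 without the pair term). BNIP3L, its close relative, went the other way with the drug: 9622 and 9211 with DMSO, 17710 and 16880 with CEP701. It was at 15860 and 22620 with scramble and at 7807 and 11100 with PRMT5 shRNA, again without overlap. Its difference of 1.90 passed in every alternative analysis that measured it.

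DDIT4, an inhibitor of mTORC1 that hypoxia induces, moved in opposite directions. Its signal was 892 and 886 with DMSO and 1910 and 1908 with CEP701. It was 7926 and 13180 with scramble and 2406 and 4136 with PRMT5 shRNA. The 2.14-fold rise and the 3.23-fold fall differed by 2.79 (interval 2.48 to 3.10, adjusted p = 5.50e-06, and 0.0189 without the pair term). NDRG1, a stress gene lowered by MYC proteins, was at 243 and 173 with DMSO and 624 and 657 with CEP701. With scramble it was at 2322 and 4075 and with PRMT5 shRNA at 607 and 1401. The knockdown group thus ended near the level that CEP701 reached from below. SLC2A1, the glucose transporter GLUT1, rose by 1.03 from 1081 and fell by 0.94 from 796. Its other probe set had no such difference (-0.03), so this gene rests on 1 of 2 probe sets. The glucose transporter SLC2A3 was lower in both (-0.59 from 3171 and -0.95 from 24610).

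P4HA1, a collagen prolyl hydroxylase, changed in the knockdown only: 1433 and 1410 with DMSO, 1216 and 1311 with CEP701, 4787 and 6772 with scramble, 1282 and 1818 with PRMT5 shRNA. ALDOC, an aldolase, fell by 2.05 with PRMT5 shRNA from 3157 and stood at 0.24 with CEP701 from 594 (adjusted p = 0.316). GPI, the glucose phosphate isomerase, fell by 1.32 from 7814, against -0.20 from 6198 with CEP701 (adjusted p = 0.183). The downstream enzymes LDHA and PGK1 fell by a like amount in both (LDHA -0.46 and -0.72; PGK1 -0.39 and -0.50), with differences of 0.25 (interval -0.06 to 0.56) and 0.11 (interval -0.20 to 0.43). GAPDH and HK1 passed in neither. Baseline moved with this group: 10 of the 16 genes called in both effects had their scramble level at least 2-fold above DMSO, and its part in the result was not tested. The count lower in both rose to 15 and the opposite count fell to 2 with poly-A scaling, and they were 13 and 4 with median scaling.

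**Figure D3:**
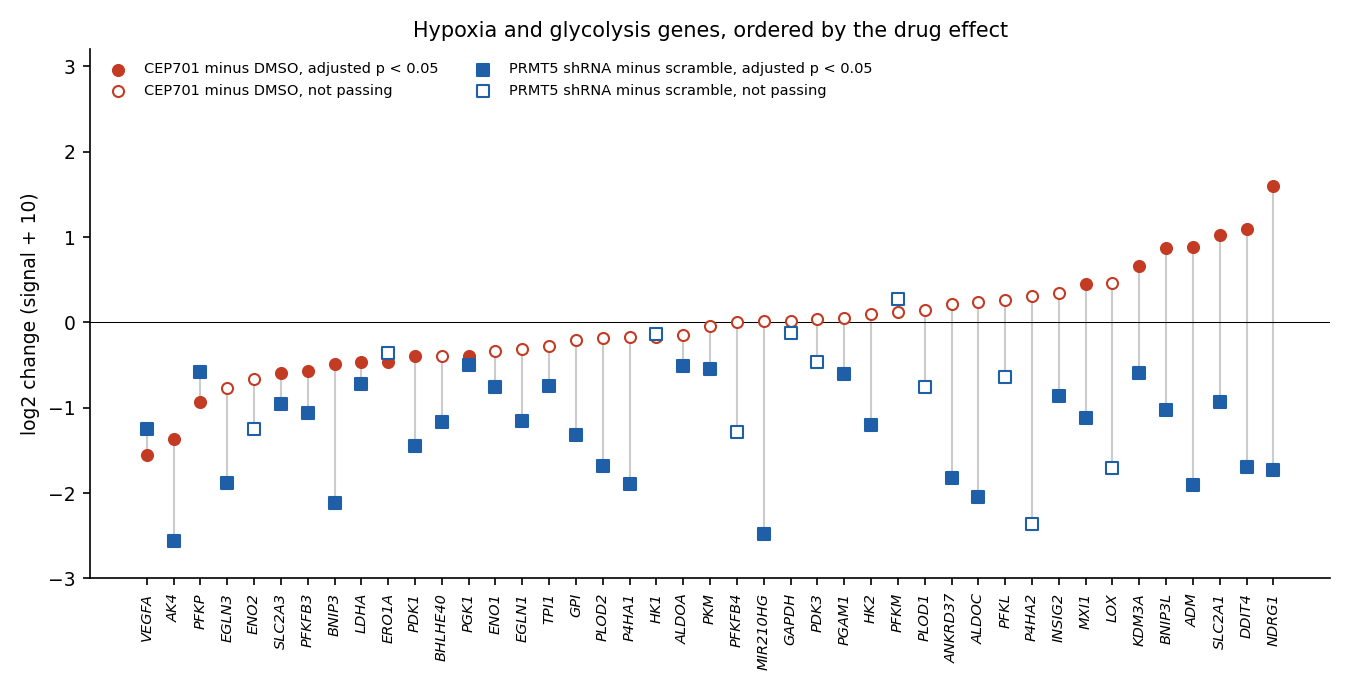
Log2 change with CEP701 (circles) and with PRMT5 shRNA (squares) for hypoxia and glycolysis genes, ordered by the drug effect and joined by a line; filled symbols passed an adjusted p of 0.05. Of 43 squares 42 lie below 0, while the circles run from VEGFA at -1.55 to NDRG1 at 1.60.

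The 68 genes that rose with CEP701 and fell with PRMT5 shRNA also held immune and signalling genes. RGS1, which shuts off G-protein signalling, was at 203 and 149 with DMSO and 456 and 312 with CEP701. It was at 4463 and 4715 with scramble and 361 and 579 with PRMT5 shRNA. The groups did not overlap in either arm, and the 2.11-fold rise and 9.84-fold fall gave the largest difference among called genes measured in both arms, 4.37 (adjusted p = 5.93e-05, and 0.00698 without the pair term). CXCL8, the chemokine interleukin-8, was at 98.1 and 110 with DMSO and 402 and 277 with CEP701. With scramble it was at 14350 and 7118 and with PRMT5 shRNA at 4906 and 2594. Its rise therefore began 89.0-fold below the level from which it fell. TNFAIP3, which restrains NF-kB, rose by 0.69 from 439 and fell by 0.79 from 7564; 1 of its 2 probe sets had the other sign with the drug.

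TRIB1, a pseudokinase that promotes breakdown of C/EBP proteins, rose by 1.28 from 6675 and fell by 0.61 from 590. BCL2A1, an anti-apoptotic BCL2 relative, rose by 1.12 from 179 and fell by 0.95 from 3969. ALOX5, ALOX5AP and PTGS1, which make leukotrienes and prostaglandins, all belonged here, with drug changes of 1.74, 0.62 and 0.34 and knockdown changes of -1.31, -0.58 and -0.55. Their control levels were 219, 1184 and 4003 with DMSO and 980, 14750 and 7211 with scramble. HLA-E and HLA-F, non-classical class I molecules, rose by 0.58 and 0.42 and fell by 0.44 and 0.72, from 3520 and 2302 with DMSO and 20980 and 7176 with scramble. TXNIP, an inhibitor of thioredoxin and of glucose uptake, rose 2.08-fold from 3408 and fell 1.54-fold from 17750, with overlapping scramble and PRMT5 shRNA arrays. The linker histone gene H1-2 rose by 0.64 from 685 and fell by 0.78 from 677, from the same control level in both arms. Arrays of 55 of the 68 did not overlap in either arm (6.75% of all genes in these directions), which passing in both effects favours. Without the pair term 42 of the 68 differences passed. The ALOX5AP, PTGS1, HLA-E and HLA-F genes were named after their values were seen.

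The 14 genes that fell with CEP701 and rose with PRMT5 shRNA included 3 of the ribosome synthesis and MYC list and 2 of the heat shock list. ODC1, the first enzyme of polyamine synthesis and a MYC target, was at 29620 and 29960 with DMSO and 13390 and 12130 with CEP701. It was at 6541 and 3704 with scramble and 10000 and 5209 with PRMT5 shRNA. Scramble and PRMT5 shRNA overlapped, and the rise of 0.55 was within the pairs. The difference was -1.78 (interval -2.07 to -1.48, adjusted p = 5.93e-05, and 0.0814 without the pair term). MYC fell by 0.41 from 20080 and rose by 0.53 from 4475 (difference adjusted p = 0.00298, and 0.343 without the pair term). EIF5A, the translation factor that carries the polyamine-derived residue hypusine, fell by 0.63 and rose by 0.46, from 20200 and 6740. GAR1, a core protein of H/ACA ribonucleoproteins, fell by 0.78 and rose by 0.53, from 3505 and 1840.

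The chaperones HSPH1, DNAJA1 and the chaperonin subunit CCT6A were in the same group. HSPH1 was at 8729 and 8623 with DMSO and 3706 and 3925 with CEP701. It was at 4055 and 2671 with scramble and 5543 and 3885 with PRMT5 shRNA, so that the treated group overlapped the control while both pairs rose. Its difference was -1.68 (adjusted p = 6.44e-05, and 0.0369 without the pair term). DNAJA1 fell by 0.98 from 8690 and rose by 0.48 from 7079, and its groups did not overlap in either arm. The mitotic genes CCNB1 and PBK fell by 0.49 and 1.06 and rose by 0.49 and 0.67, from 6774 and 4875 with DMSO and 3143 and 1247 with scramble. TXNRD1, the thioredoxin reductase that NRF2 induces, fell by 0.35 from 5660 and rose by 0.65 from 4703. The remaining genes were CHAC2, TWF1, DDX39A and MRPL20. In 4 of the 14 the arrays did not overlap in either arm (3.68% of all genes in these directions), and 5 of the 14 differences passed without the pair term.

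Control levels went with the direction in these groups. All 14 genes that fell with CEP701 and rose with PRMT5 shRNA had the higher control level with DMSO (median log2 of scramble over DMSO -1.43). Of the 68 with the reverse pattern 52 had the higher level with scramble (median 0.78), and of the 26 lower in both 16 did (median 0.34). Over all genes tested scramble was higher in 7768, with a median of 0.11. The DMSO and scramble arrays set both this ratio and the effects, so selecting opposite effects itself favours these directions. The part of the control level in the effects was not tested.

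**Figure D4:**
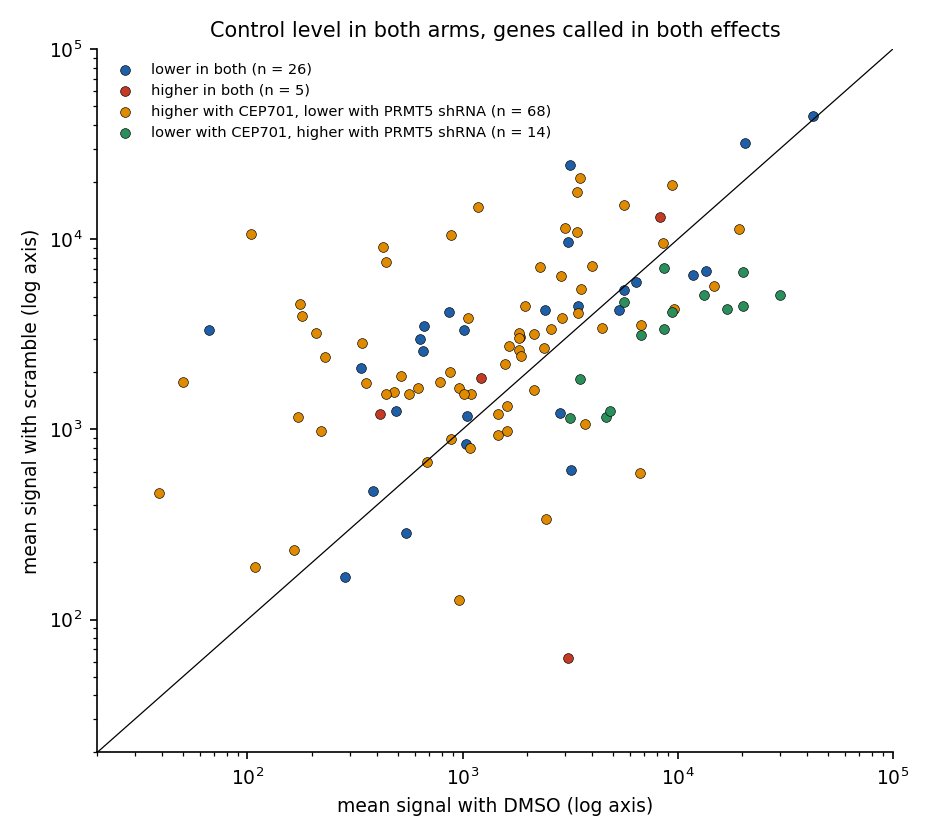
Mean signal with scramble (vertical) against mean signal with DMSO (horizontal), both on log axes, for the 113 genes that passed in both effects; the line marks equal levels. All 14 genes lower with CEP701 and higher with PRMT5 shRNA lie below the line, and 52 of 68 with the reverse pattern lie above it. The control arrays on both axes also entered the effects by which the genes were selected.

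The largest differences among genes measured in both arms came mostly from the drug. THBS1, the platelet adhesion protein thrombospondin-1, was at 948 and 876 with DMSO and 16270 and 17120 with CEP701. It was at 7666 and 15290 with scramble and 6812 and 15460 with PRMT5 shRNA, so the shRNA groups overlapped while the drug groups lay 18.1-fold apart (difference 4.26, adjusted p = 1.00e-07). GBP4, an interferon-induced GTPase, rose by 3.33 from 180 and stood at -0.64 with PRMT5 shRNA from 214 (adjusted p = 0.270). SMAD7, an inhibitor of TGF-beta signalling, was at 169 and 178 with CEP701, and PPP1R3C, a glycogen-targeting phosphatase subunit, at 83.1 and 60.0. With DMSO both were below the median of all signals (22.9 and 5.65 for SMAD7, 5.45 and 3.36 for PPP1R3C). The size of these rises, and the rank it gave them, was thus set by the pseudocount and is not a measured fold. With scramble SMAD7 was at 241 and 423 and PPP1R3C at 113 and 168. Their changes with PRMT5 shRNA were -0.84 and -1.31.

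CD24, a cell-surface glycoprotein, led in the other direction. It was at 4412 and 4780 with DMSO and 296 and 203 with CEP701, a log2 change of -4.17. It was at 185 and 225 with scramble and 78.8 and 181 with PRMT5 shRNA, where the change of -0.72 did not pass (adjusted p = 0.202). DUSP6, the ERK phosphatase, fell 12.5-fold with CEP701 from 1721 and stood at -0.39 from 7521 (adjusted p = 0.165). ID1, an inhibitor of basic helix-loop-helix factors, fell by 2.83 from 5117 and stood at 0.10 from 138. PLEKHO1 and PLEK2, pleckstrin-domain proteins, fell from 141 and 153 with DMSO to signals of 5.51 to 12.3 with CEP701, also below the median of all signals, and stood at 0.06 and 0.00 with PRMT5 shRNA from 801 and 219. DUOX2 and PAPPA rose to between 501 and 801 with CEP701 and were below that median in DMSO, scramble and PRMT5 shRNA.

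The G1/S and ribosome synthesis lists fell in most members with CEP701, the G2/M list in fewer. For all genes, 12.6% rose with CEP701, 0.318% rose and 1.43% fell with PRMT5 shRNA, and 7.94% had the lower CEP701 effect. Of 40 G1/S and replication genes 31 fell and 0 rose with CEP701 (9.71% of all genes fell), none passed in the knockdown (0 up, 0 down; 247 of all genes passed, 2089 at unadjusted p under 0.05), and 28 differed, all with the CEP701 effect lower. Their medians were -0.70 and 0.16. Relative to the median of all genes, the knockdown median ran from -0.13 to 0.49 over the alternative analyses (-0.17 to 0.57 for ribosome synthesis and MYC genes), so its sign was not stable. POLE2, a DNA polymerase epsilon subunit, was at 2088 and 1988 with DMSO and 810 and 853 with CEP701, against 1917 and 1094 with scramble and 2344 and 1246 with PRMT5 shRNA. The replication initiator MCM10 had changes of -1.28 from 2223 and 0.39 from 788. Of 33 ribosome synthesis and MYC genes 25 fell with CEP701 and 3 rose with PRMT5 shRNA (MYC, ODC1 and GAR1), and 23 differed (medians -0.55 and 0.19). DDX21, a nucleolar helicase, had changes of -1.12 from 21650 and 0.16 from 9974. Of 36 G2/M genes 9 fell and 1 rose with CEP701, 2 rose with PRMT5 shRNA (CCNB1 and CDC20), and 13 had the lower CEP701 effect.

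In the stress and metabolic lists most differences that passed had the lower CEP701 effect. Among all genes 9.71% fell with CEP701, 1.74% passed with PRMT5 shRNA, and 7.94% had the lower and 9.4% the higher CEP701 effect. The heat shock list had the lowest median difference: of 13 genes 9 fell with CEP701, 2 rose with PRMT5 shRNA and 9 differed (medians -0.62 and 0.27). FKBP4, a co-chaperone of HSP90, had changes of -1.08 from 2190 and 0.46 from 1093. Of 25 ATF4 and amino acid genes 16 fell with CEP701, 1 rose and 1 fell with PRMT5 shRNA, and 13 had the lower and 1 the higher CEP701 effect. PSAT1, of serine synthesis, was at 6606 and 5648 with DMSO and 1406 and 1148 with CEP701, against 1430 and 797 with scramble and 1566 and 908 with PRMT5 shRNA. The DMSO level was thus the one apart from the others. Of 15 aminoacyl-tRNA synthetases 9 fell with CEP701 and 0 passed with PRMT5 shRNA, and 9 differed. Of 19 genes of the unfolded protein response of the endoplasmic reticulum 10 fell with CEP701, 0 passed with PRMT5 shRNA and 10 differed. HSPA5, its main chaperone, had changes of -1.13 from 17150 and 0.03 from 13900. Of 17 sterol synthesis genes 11 fell with CEP701 and 0 passed with PRMT5 shRNA, and 9 had the lower and 1 the higher CEP701 effect. Sterol genes had lower control levels in the drug arm, such as HMGCS1 at 2041 with DMSO and 10880 with scramble.

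Of 13 NRF2 targets 1 rose and 3 fell with CEP701, 3 rose with PRMT5 shRNA (NQO1, GCLC and TXNRD1), and 5 had the lower CEP701 effect. Among all genes 12.6% rose and 9.71% fell with CEP701, 0.318% rose with PRMT5 shRNA and 7.94% had the lower CEP701 effect. GCLC, which makes glutathione, was at 2409 and 2623 with DMSO, 2141 and 2519 with CEP701, 2528 and 1795 with scramble and 3434 and 3147 with PRMT5 shRNA. Thus NQO1 rose in both, TXNRD1 was opposite and GCLC rose with PRMT5 shRNA only. Without the pair term none of these 3 passed in the knockdown.

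Genes of signalling showed no common rule. The shares over all genes were 12.6% up and 9.71% down with CEP701, 1.43% down with PRMT5 shRNA, and 17.3% differing. Of 19 JAK-STAT targets 8 fell and 3 rose with CEP701, and 2 fell with PRMT5 shRNA (PIM1 and SOCS3). The difference was lower for CEP701 in 6 and higher in 2. PIM2 had changes of -2.27 from 1492 and -0.28 from 1083, and CISH of -0.61 from 1014 and -0.43 from 679 (difference -0.18, interval -0.64 to 0.28). Of 17 ERK targets 7 fell and 2 rose with CEP701, 2 fell with PRMT5 shRNA (MAFF and TRIB1), and 2 differed each way. The list medians were alike, -0.41 and -0.39. ETV5, an ETS factor downstream of ERK, was at 1050 and 1135 with DMSO and 162 and 150 with CEP701, against 1115 and 1303 with scramble and 711 and 1001 with PRMT5 shRNA. The controls were close, and the change with CEP701 was the larger (difference -2.22, adjusted p = 0.000187).

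Of 17 NF-kB targets 3 rose and 1 fell with CEP701, 4 fell with PRMT5 shRNA (CXCL8, TNFAIP3, IL1B and CCL4), and 5 had the higher CEP701 effect. Among all genes 12.6% rose and 9.71% fell with CEP701, 1.43% fell with PRMT5 shRNA and 9.4% had the higher CEP701 effect. IL1B, an inflammatory cytokine, was at 4070 and 4093 with DMSO and 4054 and 3828 with CEP701, and did not pass (-0.05). It was at 7664 and 4848 with scramble and 2281 and 1620 with PRMT5 shRNA, a fall of 1.66 that also passed without the pair term (adjusted p = 0.0411). Of 16 immediate early genes 3 rose and 1 fell with CEP701, 0 passed with PRMT5 shRNA and 4 had the higher CEP701 effect, such as JUN (1.04 from 342 and -0.61 from 1933).

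Part of the genes that PI3K and AKT hold down rose with the drug. The shares over all genes were 12.6% up and 9.71% down with CEP701, and 0.318% up and 1.43% down with PRMT5 shRNA. In the difference 9.4% had the higher and 7.94% the lower CEP701 effect. Of 26 FOXO and PI3K-repressed genes 12 rose and 0 fell with CEP701 (12.6% of all genes rose), 0 rose and 1 fell with PRMT5 shRNA (TXNIP), and 10 had the higher CEP701 effect. Their medians were 0.72 and -0.20. YPEL3 was at 206 and 218 with DMSO and 1259 and 1301 with CEP701, against 1105 and 1798 with scramble and 827 and 1934 with PRMT5 shRNA. The cell cycle inhibitor CDKN1B had changes of 0.74 from 3404 and -0.38 from 6335. Of 13 guanylate-binding protein and HLA class II genes 7 rose with CEP701, 0 passed with PRMT5 shRNA and 7 had the higher CEP701 effect. Of 32 interferon-stimulated genes 13 rose and 1 fell with CEP701, 0 passed with PRMT5 shRNA, and 7 were higher and 1 lower in the difference. ISG15, a ubiquitin-like modifier, had changes of 0.76 from 1410 and -0.01 from 10750. Of 10 histone genes 5 rose with CEP701, 1 fell with PRMT5 shRNA (H1-2) and 3 had the higher CEP701 effect.

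Some PRMT5 partners and some genes of the Sm and SMN complex list fell with the drug. Of 16 arginine methyltransferases and partners 8 fell with CEP701, and with PRMT5 shRNA only PRMT5 itself passed. The difference was lower for CEP701 in 7 and higher in 1, which was PRMT5. COPRS, which ties PRMT5 to chromatin, was at 2077 and 2066 with DMSO and 1158 and 996 with CEP701, against 1870 and 1236 with scramble and 2283 and 1620 with PRMT5 shRNA. PRMT1, the main asymmetric methyltransferase, had changes of -0.62 from 13710 and 0.17 from 4356. Of 27 Sm and SMN complex genes 7 fell with CEP701, 0 passed with PRMT5 shRNA and 7 differed (25.9%). Over all genes 12.6% rose and 9.71% fell with CEP701, 1.74% passed with PRMT5 shRNA and 17.3% differed. SNRNP70, the U1 protein, had changes of -0.95 from 2788 and 0.28 from 1635. Of 8 genes described as repressed by PRMT5, 1 rose and 2 fell with CEP701, 0 passed with PRMT5 shRNA and 1, NME1, had the lower CEP701 effect.

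Among the lineage lists, the share that differed was 16.7% for erythroid genes, 44% for those of megakaryocytes and 10% for those of monocytes and granulocytes, against 17.3% of all genes. Over all genes 12.6% rose and 9.71% fell with CEP701, and 0.318% rose and 1.43% fell with PRMT5 shRNA. Of 30 erythroid genes 6 rose and 2 fell with CEP701, 2 rose with PRMT5 shRNA (CA1 and EPB42), and 3 were higher and 2 lower in the difference. FECH, the last enzyme of haem synthesis, had changes of 1.19 from 1700 and 0.36 from 1890, the control levels being alike. Of 25 megakaryocyte genes 7 rose and 7 fell with CEP701, 0 passed with PRMT5 shRNA, and 8 were higher and 3 lower in the difference. Of 20 monocyte and granulocyte genes 2 rose and 2 fell with CEP701, 3 fell with PRMT5 shRNA (AZU1, CTSG and ITGAM), and 1 differed each way. Of 9 stem and progenitor genes 3 rose with CEP701, 0 passed with PRMT5 shRNA and 3 were higher in the difference. KIT, the stem cell factor receptor, was at 6934 and 7327 with DMSO and 28560 and 26450 with CEP701. It was at 18820 and 40160 with scramble and 15480 and 35110 with PRMT5 shRNA, so the drug brought KIT into the range of the shRNA arm (difference 2.18, adjusted p = 1.17e-05, and 0.0840 without the pair term). Of 13 lymphocyte genes 1 rose with CEP701, 0 passed with PRMT5 shRNA and 2 were higher in the difference. Of 11 epithelial and fibroblast genes 0 passed in the drug effect, the knockdown effect or the difference.

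Taken relative to the median of all genes, the median difference kept its sign in all 24 alternative analyses for 25 of the 33 lists. The exceptions were the interferon, erythroid, megakaryocyte, epithelial and fibroblast, p53, cell cycle inhibitor, lysosome and PRMT5-repressed lists. The lists not yet described had few calls with PRMT5 shRNA, as had all genes (0.318% up, 1.43% down). Over all genes 12.6% rose and 9.71% fell with CEP701, and 17.3% differed. Of 15 BCL2 family genes 1 rose and 3 fell with CEP701 and 1 fell with PRMT5 shRNA (BCL2A1). Of 20 p53 targets 5 rose and 3 fell with CEP701 and 1 fell with PRMT5 shRNA (ZMAT3), and 5 were higher and 3 lower in the difference. TP53INP1 was at 55.4 and 32.8 with DMSO, below the median of all signals, and at 550 and 408 with CEP701, and its knockdown change was -0.06 from 4017. Of 8 cell cycle inhibitors and pocket proteins 2 rose and 1 fell with CEP701 and 0 passed with PRMT5 shRNA. Of 21 lysosome and autophagy genes 5 rose and 1 fell with CEP701 and 1 rose with PRMT5 shRNA (CTSZ). Of 27 respiratory chain genes 1 rose and 2 fell with CEP701, 0 passed with PRMT5 shRNA and 3 had the lower CEP701 effect.

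**Figure D5:**
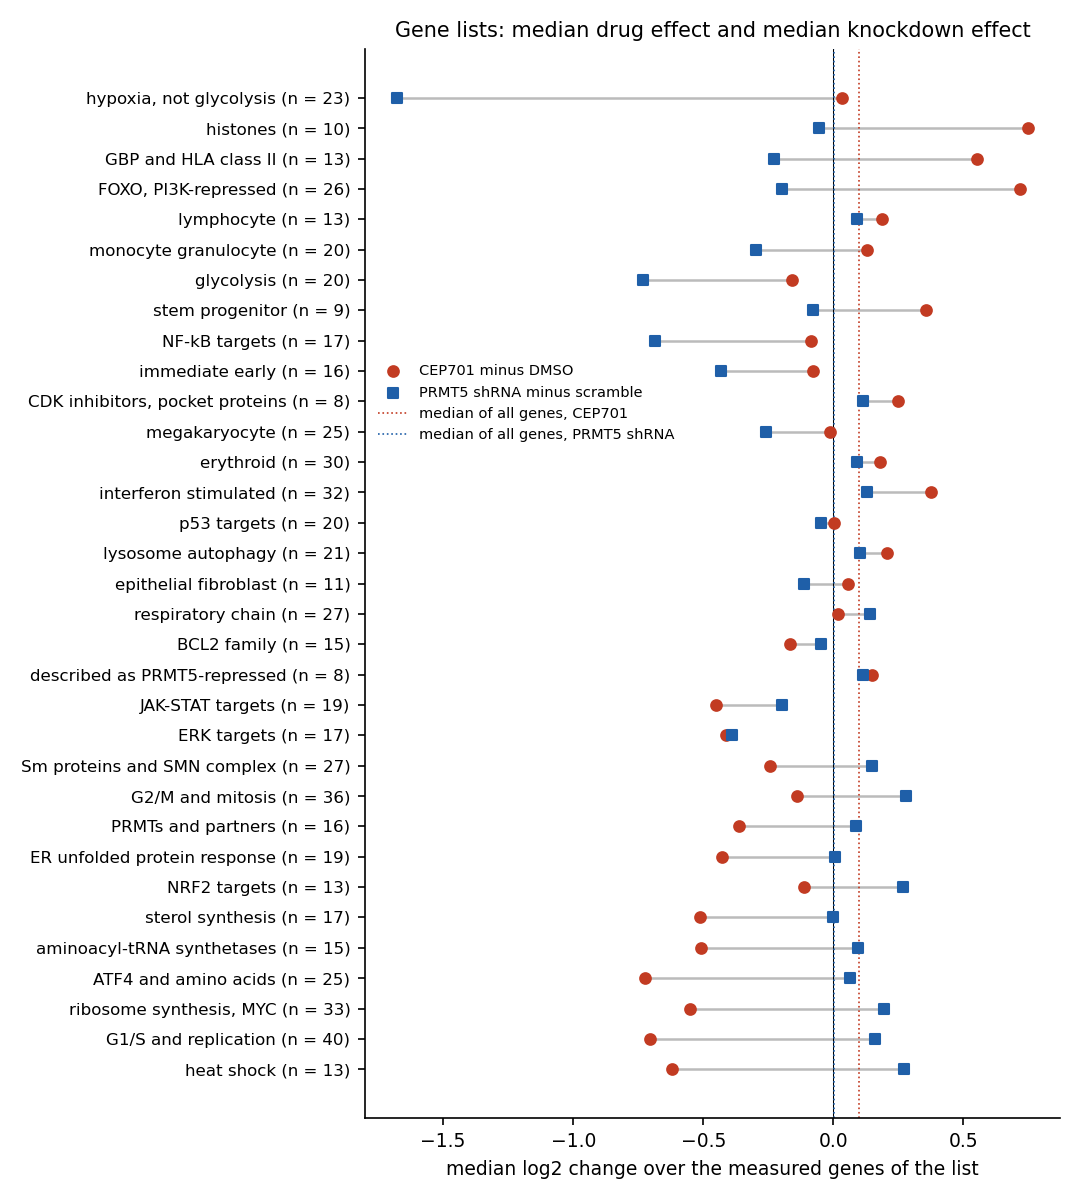
Median log2 change with CEP701 (circles) and with PRMT5 shRNA (squares) over the measured genes of each list, ordered by the median difference, with the number of genes measured and dotted lines at the medians of all genes. Hypoxia genes have the largest gap, with the knockdown at -1.68 and the drug at 0.03, and heat shock genes the largest gap the other way (0.27 and -0.62).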

How the data were processed

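Total RNA of 8 HEL samples was labelled (200 ng each, 3' IVT kit) and hybridized to Affymetrix arrays, per the labels' protocols. The authors deposited MAS5 signals, a linear probe-set intensity, from Expression Console, per the submitters' processing notes; versions are not given in the sources used here. MAS5 scales each array to a common trimmed mean and leaves other differences between arrays, so the scaling was varied. Probe sets that name 1 gene and exceed 60 (the overall median signal) on 2 or more arrays were kept, and each of 14162 genes was represented by its highest probe set. On log2(signal + 10), which understates changes of low genes, 1 model was fitted with limma 3.58.1 (lmFit, eBayes with trend) in R 4.3.3 (package data.table, version 1.17.8), with terms for 4 groups and 1 for the shRNA pair. The pairing comes from a shared title suffix; deviations from group means correlated within the shRNA arm (r = 0.323) and not within the drug arm (r = -0.0115). Adjusted p-values are Benjamini-Hochberg over all genes, with a threshold of 0.05; passing, rising and falling refer to it. Intervals are 95%. "Measured in both arms" means above 60 on at least 2 arrays of each arm. The calculation was tested on simulated data.

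The comparison, the 33 gene lists and the rules were chosen with earlier results of these data known. Named were PRMT5, up to 8 genes in each direction class by the smaller change or the difference, the 5 largest differences each way and up to 3 genes a list by lowest p; other genes were named after their values were seen. Promoters came from RefSeq. 24 alternatives were run.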

Additional observations from a re-analysis of the deposited data

How the results depend on the processing

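Of 3379 values of named results under the 24 alternatives, 2665 kept their direction and side of the threshold, 694 kept the direction but no longer passed, 14 newly passed and 6 reversed. Without the pairing of the shRNA arrays (no replicate block), 203 genes passed in the difference (157 with the CEP701 effect higher, 46 lower), 819 for CEP701 and 21 for PRMT5 shRNA, and 1 gene had the same and 1 the opposite direction. Of 109 named differences that passed, 45 passed without the block. The PRMT5 knockdown effect stayed at -1.52 and did not pass without the block (adjusted p = 0.217) or with eBayes without a trend (-1.52, adjusted p = 0.0608). Without the trend 373 genes passed in the difference (262 higher, 111 lower), 1286 for CEP701, 8 for PRMT5 shRNA, and 1 each in the same and the opposite direction; 61 of the 109 passed.

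Scaling moved the directions. With median scaling the difference had 614 genes higher and 1443 lower, and 49 same and 28 opposite genes. With poly-A scaling it had 272 higher and 2520 lower, 10 opposite genes and 113 knockdown calls. The lower counts match the shift of the median over all genes (-0.40 with poly-A scaling). Without a filter on low values 153 genes passed in the knockdown and 49 were opposite. With only genes above the median on all 8 arrays 50 were the same and 125 opposite, and r was -0.181. Without _x_at and _s_at probe sets 161 passed in the knockdown, 716 were lower in the difference, and 20 were the same and 47 opposite. The reversed values were the differences of SLC2A1 (-0.029), HBB (0.39) and MS4A1 (-0.41) without those probe sets and of GATA2 (-0.026) with poly-A scaling, and the drug effects of SLC26A2 (-0.15) with poly-A scaling and of BCL6B (0.06) with the mean of probe sets; the cause was not tested.

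Leaving out 1 array of the drug arm gave 1470 to 2018 genes in the difference (860 to 1062 higher, 610 to 956 lower), 1705 to 2315 for CEP701, 140 to 212 for PRMT5 shRNA, 12 to 23 with the same and 28 to 51 with the opposite direction, and r of -0.0814 to -0.0502; the lowest counts in the difference and for CEP701 were without DMSO replicate 2. Without the first shRNA pair the difference had 1556 genes (852 higher, 704 lower), with 3044 for CEP701, 90 for PRMT5 shRNA, 19 the same, 26 opposite and a PRMT5 change of -1.61. Without the second pair it had 1173 (592 and 581), with 3039, 35, 9, 11 and -1.42. Leaving out 1 shRNA array also removes the pairing, so its values combine both. Without PRMT5 shRNA replicate 1 the difference had 75 genes (60 higher, 15 lower), with 1220 for CEP701, 5 for PRMT5 shRNA, 2 the same, 1 opposite, r = 0.0468 and a PRMT5 change of -2.04. Without PRMT5 shRNA replicate 2 these values were 514 (328 and 186), 1233, 27, 2, 3, -0.154 and -0.99. Without scramble replicate 1 they were 808 (467 and 341), 1199, 18, 2, 3, -0.154 and -1.09, and without scramble replicate 2 they were 66 (51 and 15), 1202, 3, 1, 0, 0.0482 and -1.95. The PRMT5 change did not pass without any 1 of these 4 arrays. With 2 arrays a group, small changes and genes near the median signal could not be resolved. The differences of 18 genes passed in every alternative that measured them: BCL2A1, BNIP3L, CD24, CD36, CXCL8, DDIT4, DUOX2, DUSP6, ETV5, GBP4, ID1, PAPPA, PIM1, PIM2, RGS1, THBS1, TP53INP1 and TRIB1.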
